A study of Mus musculus with 4 samples.

Results

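The DNA recovered from mouse embryonic stem cells with an antibody labelled LSD1 was compared directly with the DNA recovered with an antibody to H3K4me2, histone H3 dimethylated at lysine 4, region by region. The regions were the merged union of the LSD1 and H3K4me2 peak lists on the 19 autosomes, joined where peaks shared at least 1 bp or abutted, without the 34 regions that touched a peak of the control IgG library. This left 32215 of the 32506 regions on all chromosomes, and the remaining 257 lay on X and Y. Of the 32215 regions, 27437 came from the H3K4me2 list alone, 4381 held peaks of both lists and 397 came from the LSD1 list alone. The measure throughout was the ratio of LSD1 to H3K4me2 reads, each per 1000000 reads of its library (RPM), so that a high ratio leans to LSD1 and a low one to H3K4me2.

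All libraries came from the R1 line of embryonic stem cells, derived from 129SV mice, used at passages 13 to 18 and kept with leukaemia inhibitory factor. Cells were fixed with formaldehyde, chromatin was sheared by sonication, and the 4 libraries differed in what was recovered: LSD1, H3K4me2, control IgG, or no immunoprecipitation (Input). No genotype or treatment differed between them. Each group held 1 library from 1 line, and the labels do not say whether the chromatin came from separate cultures. Differences are therefore differences between these libraries, without a replicate check and without p-values. The intervals given are at the 95% level and reflect counting error alone. In the labels the LSD1 antibody carries a catalogue number under which a different supplier is known to sell an H3K27me3 antibody, so the name LSD1 follows the label and was not checked against a known target.

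LSD1 (KDM1A) is an amine oxidase that demethylates lysine 4 of histone H3 in its mono- and dimethylated forms, usually as part of complexes with CoREST and histone deacetylases. H3K4me2, its substrate, marks active and poised promoters and enhancers and often flanks the trimethylated nucleosomes next to a start site. In embryonic stem cells LSD1 is known from enhancers that are switched off as the cells differentiate, and from promoters of active genes. A direct comparison of both libraries asks whether the enzyme's signal follows its substrate evenly or favours some regions, and some places inside a region.

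The LSD1 library held 5833862 reads and the H3K4me2 library 6416657, against 4755619 for IgG and 3801082 for Input. The share of a library's reads that lay in the regions was 19.85% for H3K4me2, 10.3% for LSD1, and lower for the controls, at 2.96% (IgG) and 1.42% (Input). A region held a median of 15 LSD1, 32 H3K4me2, 4 IgG and 1 Input reads, and its median width was 738 bp. The depth of single regions was thus modest, and 20 regions held no LSD1 read and 7 no H3K4me2 read. A count of 0 allows up to 3 reads, or 0.514 RPM in LSD1 and 0.468 RPM in H3K4me2.

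Over all regions the LSD1 library reached 3.70 RPM per kb and the H3K4me2 library 7.12 RPM per kb, against 1.06 for IgG and 0.509 for Input. The pooled LSD1 to H3K4me2 ratio was 0.519 (exact interval 0.518 to 0.521), and 0.435 after the IgG level was taken from both. Both ChIP libraries stood above both controls: LSD1 exceeded IgG 3.48-fold (3.46 to 3.50) and H3K4me2 exceeded it 6.70-fold (6.66 to 6.73), while IgG itself exceeded Input 2.09-fold (2.07 to 2.11). Among the 19 autosomes the ratio ran from 0.498 on chromosome 14 to 0.534 on chromosome 7, a narrow range.

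Most single regions could not be told apart from this one ratio at the depth of these libraries. Single-region ratios had a median of 0.508, with the middle 50% between 0.40 and 0.629 and the middle 90% between 0.262 and 0.864. In 93.6% of the 31157 regions with at least 20 LSD1 plus H3K4me2 reads, the region's own interval held the pooled ratio. The dispersion index, which is 1 where counting error alone spreads the counts around 1 common ratio, was 1.31 over all regions. It was 0.944 in regions of the H3K4me2 list alone, 1.36 in regions of both lists and 1.13 in those of the LSD1 list alone. Within the H3K4me2 list alone it rose with width, from 0.769 under 500 bp to 1.26 in the 520 regions of 2000 to under 5000 bp. The median of LSD1 plus H3K4me2 reads rose as well, from 24 to 171. With more reads the same spread of ratios gives a higher index, so no wider spread in wide regions is read from it. The limit of the H3K4me2 list and the minimum of 20 reads also select on these reads. Regions with an LSD1 call are by definition not in that list alone, which trims its high end.

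A region was said to lean to LSD1 where its ratio was at least 2 times the pooled ratio with the whole interval above it, and to H3K4me2 where it was at most the pooled ratio divided by 2 with the whole interval below it. Of the 31157 regions tested, 582 (1.87%) leaned to LSD1 and 568 (1.82%) to H3K4me2. No adjustment was made for how many regions were tested. At the 95% level some intervals miss the pooled ratio by counting error alone, and 93.6% of the tested intervals held it. The 582 and 568 can thus include many regions that passed by counting error, in a share not given here. What follows describes the regions picked by these bounds. The bounds fell at ratios of 1.039 and 0.260, with the last regions inside at 1.04 and 0.2597 and the next outside at 1.039 and 0.260. The interval condition alone was met by 1171 regions on the LSD1 side and 813 on the H3K4me2 side, so the fold condition decided many calls. With a fold of 1.5 the counts were 1096 and 779, and with regions less than 1 kb apart joined into 1 they were 321 and 361 of 22837 tested.

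The regions leaning to LSD1 were narrow and mostly LSD1 calls. Of the 582, 45.2% were under 500 bp, against 14.1% of all tested regions, and 24.2% lay 20 kb or more from the next region, against 17.6%. The LSD1 list alone gave 285 of the 582, both lists 263 and the H3K4me2 list alone 34. In the same order, those under 500 bp numbered 223, 27 and 13, and those with a gap of 20 kb or more 79, 57 and 5. All regions of the LSD1 list alone had a median width of 382 bp, so the narrowness largely follows that list. In the H3K4me2 list alone 0.323% of tested regions under 500 bp leaned to LSD1, against 0.129% at all widths. Together the 582 held 6.86 LSD1, 5.04 H3K4me2, 1.23 IgG and 0.369 Input RPM per kb, a pooled ratio of 1.36. The H3K4me2 level in them was below the 7.12 of all regions, but still above IgG. A high ratio on these same reads chose the 582 regions, so both levels follow at least in part from that choice.

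The regions leaning to H3K4me2 were mostly of middle width and had ordinary spacing. All 568 came from the H3K4me2 list alone, and 79.1% were 500 to under 1000 bp wide, against 58.4% of tested regions, with fewer both below (6.87% against 14.1%) and from 1000 to under 2000 bp (13.9% against 24.3%). Their gaps to the next region followed those of all tested regions, with 47.7% under 1 kb against 47.9%. They held 1.41 LSD1, 7.30 H3K4me2, 0.924 IgG and 0.537 Input RPM per kb, so that LSD1 lay closer to IgG than over all regions while H3K4me2 was at its usual level. A low ratio on these same reads chose the 568 regions, so their low LSD1 level follows at least in part from that choice. The share of tested regions that passed the bounds differed with width. Leaning to LSD1 were 6.002% of those under 500 bp, against 0.202% at 2000 to under 5000 bp. Leaning to H3K4me2 were 0.89% under 500 bp and 2.466% at 500 to under 1000 bp. That share was 1.044% at 1000 to under 2000 bp and 0.101% at 2000 to under 5000 bp. How much of this follows from the number of reads was not tested. Peak class and lean are not independent, since the lists were called on the reads counted here.

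**Figure D1:**
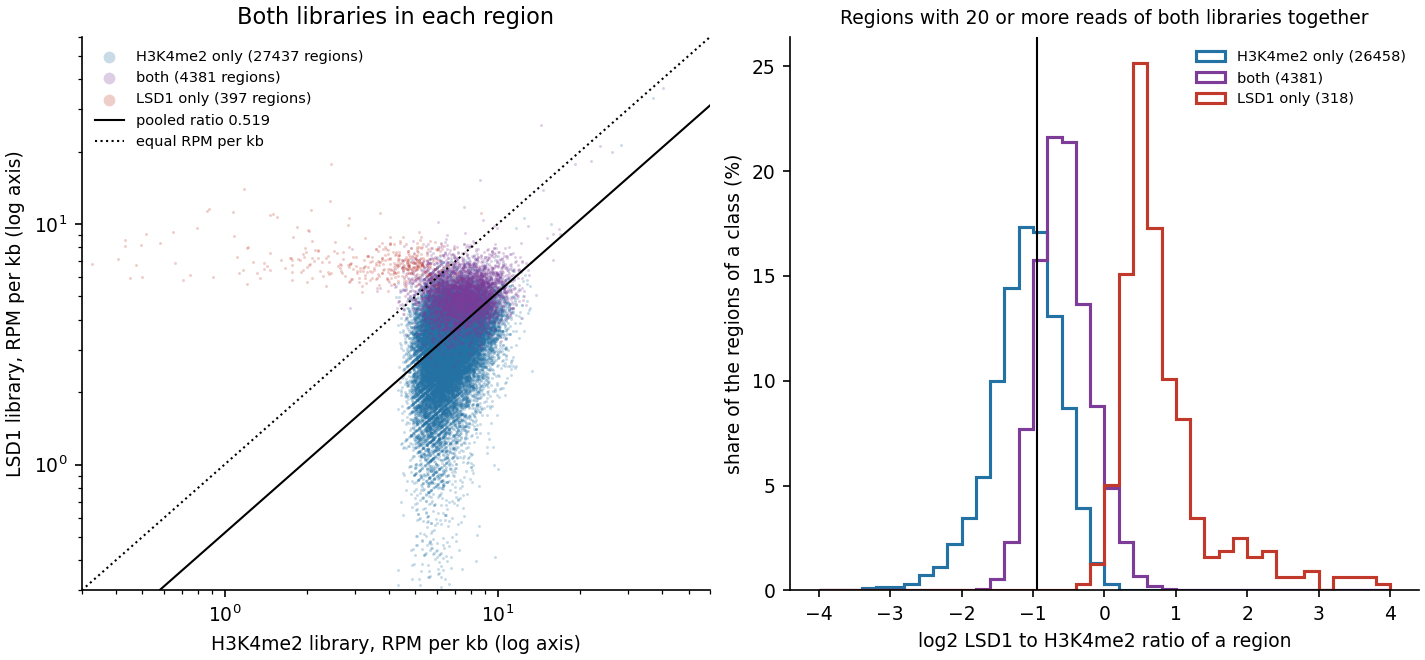
LSD1 against H3K4me2 density of every region in RPM per kb on log axes, coloured by peak list, with a histogram of single-region ratios beside it; 31 regions without a read in 1 library or outside the axes are not drawn. The regions of the H3K4me2 list alone lie in a narrow H3K4me2 band with a wide LSD1 range, and the 397 regions of the LSD1 list alone lie to the LSD1 side.

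The limits of the peak lists shape this picture. In regions of the H3K4me2 list alone the middle 90% of H3K4me2 densities ran from 5.22 to 8.90 RPM per kb, and the LSD1 densities from 1.49 to 5.01. In regions of the LSD1 list alone the order was turned, with LSD1 from 5.76 to 9.14 and H3K4me2 from 0.738 to 5.94 RPM per kb. In regions of both lists the LSD1 densities ran from 3.72 to 6.90 RPM per kb. Across all 32215 regions LSD1 and H3K4me2 reads per kb had a Pearson's r of 0.199 and a Spearman's rho of 0.291, against 0.134 and 0.125 for LSD1 and IgG. These are descriptions over regions of shared libraries that were chosen by a lower limit on the same reads.

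When regions were ordered by the sum of both densities into 10 equal classes, the lowest class had a ratio of 0.314 (0.309 to 0.319) and the highest one of 0.575 (0.571 to 0.579). LSD1 rose from 1.73 to 5.26 RPM per kb along this order and H3K4me2 from 5.51 to 9.16. IgG rose as well, from 0.905 to 1.27, and so did the median width, from 538 to 1016 bp. The sum contains both counts, and nearly every region had to reach the limit of the H3K4me2 list, so a low sum could hardly be reached without a low LSD1 count.

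The strands of the libraries allowed a region to be ranked on some reads and read on others, although the peak lists drew on both strands. Regions with at least 10 reads on a strand were ranked by the ratio on that strand, and the ratio was then read on the other strand. Within the H3K4me2 list alone, the highest and lowest 10% of regions on the plus strand had ratios of 0.978 and 0.178 there. On the minus strand the same regions had 0.462 (0.454 to 0.471) and 0.478 (0.469 to 0.487). With the strands exchanged the values on the strand not used for ranking were 0.461 (0.453 to 0.469) and 0.486 (0.477 to 0.495). The highest 10% thus came out slightly below the lowest. Membership of this list alone limits the LSD1 reads of both strands together, which pushes a region high on one strand to be low on the other, so nothing about regional differences is read from it.

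In regions of both lists, which are likewise chosen on the reads of both strands, the order was kept in part. Their highest and lowest 10%, at 1.3 and 0.382 on the plus strand, had 0.749 (0.723 to 0.776) and 0.618 (0.603 to 0.634) on the minus strand. With the strands exchanged the values were 0.740 (0.715 to 0.767) and 0.633 (0.617 to 0.650). The highest 10% were also narrower, with a median width of 756.5 bp against 1281 bp for the lowest. Over all regions, where the peak class itself differs between these ends, the plus-strand ranking gave 0.592 (0.583 to 0.600) and 0.482 (0.474 to 0.490) on the minus strand.

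**Figure D2:**
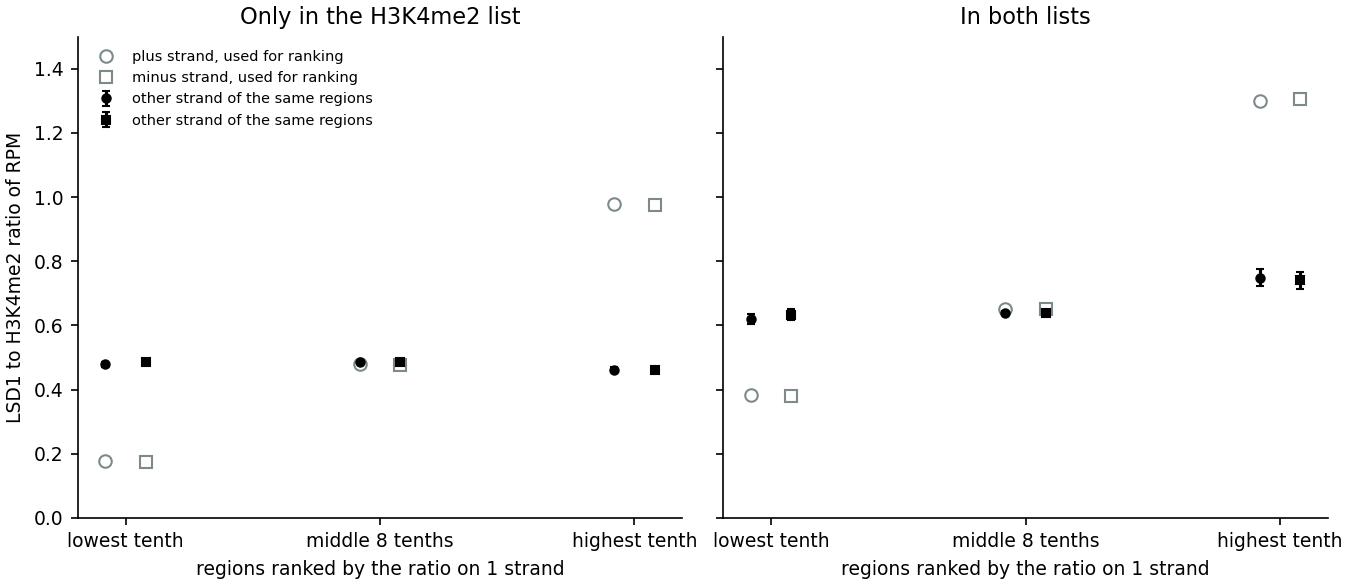
LSD1 to H3K4me2 ratio on the ranking strand (open symbols) and on the other strand of the same regions (filled symbols), for the highest 10%, the lowest 10% and the remaining regions, by peak list and ranking strand; bars are exact 95% intervals. On the other strand of the H3K4me2 list alone the highest and lowest groups lie between 0.461 and 0.486, whereas in regions of both lists the highest lie at 0.740 and 0.749 and the lowest at 0.618 and 0.633.

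By width, the ratio was nearly flat. It was 0.530 in the 5424 regions under 500 bp, 0.517 at 500 to under 1000 bp (18221 regions), 0.522 at 1000 to under 2000 bp (7565 regions) and 0.513 at 2000 to under 5000 bp (990 regions). Both libraries became denser with width, LSD1 from 3.23 to 4.20 RPM per kb and H3K4me2 from 6.10 to 8.18 between the first and the fourth of these classes. IgG moved little, from 0.996 to 1.13, while Input rose from 0.269 to 0.594, so that IgG exceeded Input 3.70-fold (3.54 to 3.87) in the narrowest regions. The ratio in regions under 500 bp was 1.03 times that in regions of 2000 bp or more (Woolf interval 1.01 to 1.04), and 1.003 times after IgG was taken off. With regions less than 1 kb apart joined the direction turned, to 0.995.

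The 15 regions of 5000 bp or more had a ratio of 0.609 (0.583 to 0.637). Without 1 region of chromosome 11 that held 451 Input reads, the ratio of the other 14 was 0.537 (0.510 to 0.565). The excess of the widest class over the next therefore rested mostly on that region, which is described below.

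Within regions of both lists the ratio did move with width. It was 0.979 (0.913 to 1.05) in the 97 regions under 500 bp, 0.751 (0.742 to 0.760) at 500 to under 1000 bp, 0.626 (0.621 to 0.632) at 1000 to under 2000 bp and 0.566 (0.559 to 0.574) at 2000 to under 5000 bp. LSD1 density fell along this order, from 6.11 to 4.74 RPM per kb, and H3K4me2 density rose from 6.24 to 8.37. The narrowest regions of both lists had 1.72 times (1.60 to 1.84) the ratio of those of 2000 bp or more. An LSD1 peak had to reach the limit of its list, and in a narrow region it fills most of the width, so this slope is a description of how such peaks sit in regions.

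In the H3K4me2 list alone the width classes gave 0.473, 0.484, 0.479 and 0.461, with 1.03 times (1.01 to 1.05) the ratio in the narrowest as in the widest. The regions of the LSD1 list alone stood at 1.89 (1.81 to 1.98) under 500 bp (334 regions) and 1.70 (1.57 to 1.84) at 500 to under 1000 bp (63 regions). Regions with an LSD1 peak had 1.375 times (1.365 to 1.385) the ratio of those without, 0.660 against 0.480, which the LSD1 calls on the same reads raise by construction.

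Isolation, the gap to the nearest other region, moved the ratio little as well. It was 0.517 in the 15387 regions with a gap under 1 kb, 0.512 for gaps of 1 to 5 kb, 0.526 for those of 5 to 20 kb, and 0.531 in the 5777 regions 20 kb or more from the next. The isolated regions had 1.03 times (1.02 to 1.04) the ratio of the clustered ones. H3K4me2 density was lower in isolated regions, at 6.74 against 7.25 RPM per kb, and so was LSD1, at 3.58 against 3.74, with IgG at 1.04 in both and Input at 0.456 against 0.511.

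The small lean of isolated regions to LSD1 was not seen at every width. The isolated over clustered quotient was 1.01 (0.985 to 1.05) under 500 bp and 0.999 (0.987 to 1.01) at 500 to under 1000 bp. It was 1.06 (1.05 to 1.08) at 1000 to under 2000 bp and 1.07 (1.03 to 1.11) at 2000 to under 5000 bp. In the H3K4me2 list alone the direction turned under 500 bp, at 0.964 (0.933 to 0.995), and 500 to under 1000 bp gave 0.998 (0.985 to 1.01). The class of 1000 to under 2000 bp gave 1.06 (1.04 to 1.08), while that of 2000 to under 5000 bp, with 37 isolated regions, gave 0.978 (0.922 to 1.04). In regions of both lists the quotient over all widths was 1.09 (1.07 to 1.11), with isolated regions at 0.690 and clustered ones at 0.633.

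Regions of the LSD1 list alone had a ratio of 1.65 (1.55 to 1.76) with a gap under 1 kb, 1.84 (1.66 to 2.04) with one of 1 to 5 kb, 2.42 (2.20 to 2.67) with one of 5 to 20 kb, and 1.81 (1.68 to 1.95) beyond that. The H3K4me2 density in them was 4.18 RPM per kb when a neighbour was within 1 kb and 3.16 in the 77 regions at 5 to 20 kb, in all cases above the IgG level of 1.11 to 1.48. The clustered regions of the LSD1 list alone thus held the most H3K4me2 of this class, and the order was not monotonic with the gap.

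**Figure D3:**
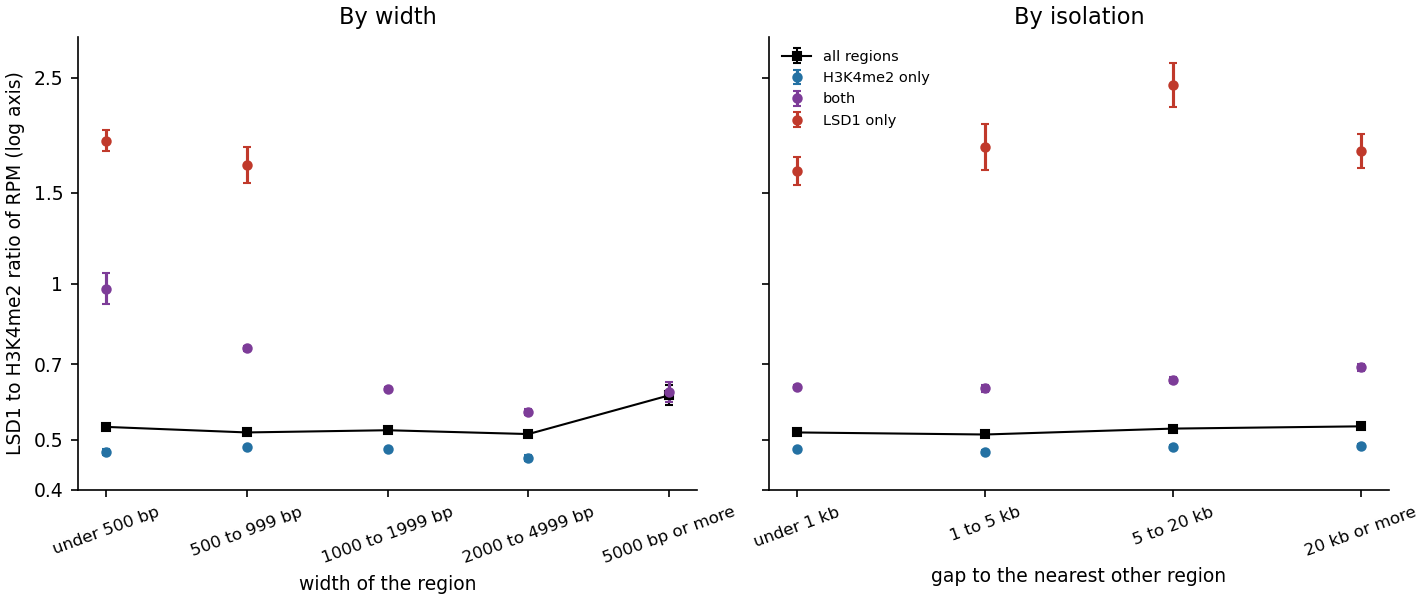
LSD1 to H3K4me2 ratio (log axis) by width class and by gap to the nearest region, for all regions and by peak list; bars are exact 95% intervals, and the single region of 5000 bp or more in the H3K4me2 list alone is not drawn. The ratio is nearly flat for all regions and for the H3K4me2 list alone, falls with width in regions of both lists from 0.979 to 0.566 below 5000 bp, and is highest in the LSD1 list alone.

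The ratios of neighbouring regions were only weakly correlated at this depth. The correlation of log2 ratios between a region and the next one on the chromosome, as a description with a pseudocount of 0.5 reads, had a Pearson's r of 0.103 over 8257 pairs less than 1 kb apart, 0.0872 over 4262 pairs 1 to 5 kb apart, 0.0509 for pairs 5 to 20 kb apart, and 0.0146 beyond that. Neighbours share their libraries and stretches of background. Counting error in single-region ratios lowers such correlations, so the low values do not show that neighbours differ.

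Inside the regions the libraries were distributed differently, and this was a larger difference than any by width or isolation over all regions. The 26791 regions of 500 bp or more were cut into 10 equal parts and folded at the midpoint, so that the first part is the edge on either side and the fifth the centre. LSD1 rose from 2.69 RPM per kb at the edge to 4.35 at the centre, and H3K4me2 from 4.17 to 8.70. The ratio was 0.645 at the edge, 0.518, 0.498 and 0.496 in the next parts, and 0.50 at the centre. IgG rose from 0.957 to 1.12 and Input stayed between 0.519 and 0.550.

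The centre over edge quotient was 0.775 (0.767 to 0.784), and 0.790 after IgG was taken off both, so H3K4me2 was the more concentrated of the libraries towards the middle. In the 22444 regions without an LSD1 peak, whose extent was set without LSD1 calls, the ratio fell from 0.630 (0.623 to 0.636) at the edge to 0.450 (0.447 to 0.454) at the centre. With an LSD1 peak (4347 regions) it was 0.695 at the edge, 0.603 in the next part and 0.669 (0.660 to 0.677) at the centre, with a quotient of 0.962 (0.942 to 0.983). Nearly all region edges were placed by H3K4me2 calls on these reads, and how much of the drop at the edge follows from that was not tested. With regions less than 1 kb apart joined into 1, so that many edges became interior, the quotient over all regions was 0.988.

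Measured by parts, the fall towards the centre was steepest in narrow regions. Without an LSD1 peak the centre over edge quotient was 0.617 (0.607 to 0.628) at 500 to under 1000 bp, 0.841 (0.823 to 0.858) at 1000 to under 2000 bp and 0.946 (0.903 to 0.991) at 2000 to under 5000 bp. The parts grow with the region, so the edge part covers fewer base pairs in a narrow region. How much of this order follows from the length of the parts was not tested. In regions of 1000 to under 2000 bp the lowest ratio was not at the centre: from edge to centre it ran 0.578, 0.464, 0.434, 0.480 and 0.486. At 2000 to under 5000 bp the order was 0.492, 0.428, 0.452, 0.476 and 0.466, with the lowest value in the second part. At 1000 to under 2000 bp H3K4me2 was denser in the third part than at the centre, 8.74 against 8.09 RPM per kb, while LSD1 went from 3.79 to 3.93. At 2000 to under 5000 bp H3K4me2 was 8.58 in the second part and 8.66 at the centre, and LSD1 rose from 3.67 to 4.04.

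**Figure D4:**
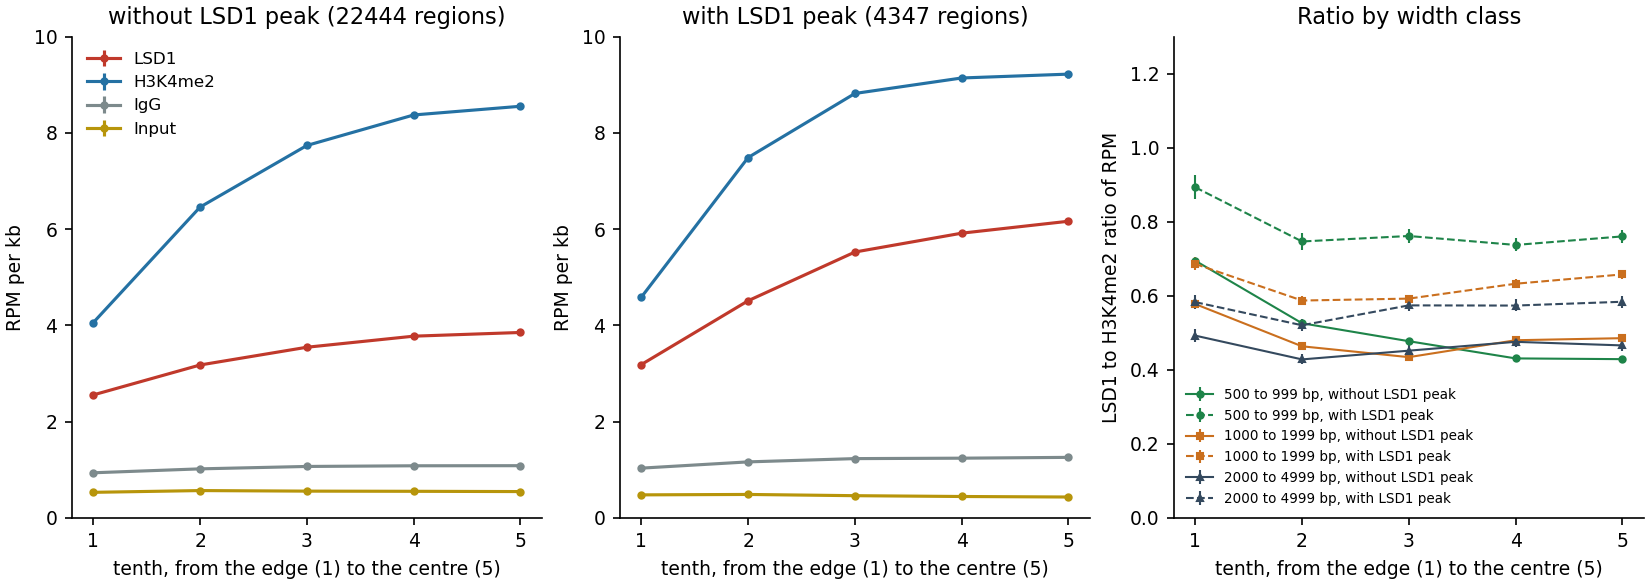
Density in RPM per kb by part of the region, from edge to centre, over regions of 500 bp or more, without (22444) and with (4347) an LSD1 peak, and the LSD1 to H3K4me2 ratio by width class; bars are 95% counting intervals, mostly smaller than the points. Without an LSD1 peak the ratio falls from 0.695 at the edge to 0.429 at the centre at 500 to under 1000 bp, and is lowest away from the centre in wider regions.

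Measured in base pairs, the same shape lay close to the edge. Ends of regions of 1000 bp or more without an LSD1 peak, with no other region within 4 kb on that side, gave 7006 free ends. These ends were placed by H3K4me2 calls on the reads counted here. A sharper step in H3K4me2 than in LSD1 at them therefore follows at least in part from the calls. In the outermost 500 bp counted, up to 2000 bp away, LSD1 stood at 0.793, H3K4me2 at 0.924, IgG at 0.675 and Input at 0.568 RPM per kb, a ratio of 0.858. On the way to the edge H3K4me2 rose faster than LSD1, and the ratio was 0.660 (0.639 to 0.682) at 200 to 300 bp outside.

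At the edge the order turned for a short stretch. In the last 100 bp outside, H3K4me2 was 2.19 RPM per kb, no higher than the 2.31 of the 100 bp before it, while LSD1 had risen from 1.59 to 1.83. The ratio there was 0.835 (0.810 to 0.861), and 0.701 (0.683 to 0.719) in the first 100 bp inside. It then reached its lowest value, 0.416 (0.408 to 0.424), at 200 to 300 bp inside, where H3K4me2 was 8.67 and LSD1 3.61, and was 0.496 (0.487 to 0.506) at 400 to 500 bp. With IgG taken off, the ratios at the same 6 distances were 0.474, 0.475, 0.739, 0.592, 0.330 and 0.411. The turn at the edge was still there, but the fall on the way to it was not. All values by distance from the edge were read only with starts moved 100 bp, as much as 1 of these windows is wide. Whether the turn stays under another move was not tested.

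The 2894 free ends of regions with an LSD1 peak showed a similar turn. Their ratio in the last 100 bp outside was 0.835 (0.797 to 0.874), the value of regions without such a peak, and it was higher than theirs inside, at 0.555 (0.540 to 0.569) from 200 to 300 bp. Ends that faced another region within 1 kb differed in both directions. Without an LSD1 peak their first 100 bp had a ratio of 0.769 (0.743 to 0.797) over 3433 ends, against 0.701 at free ends. LSD1 there was 2.73 RPM per kb against 2.37 at free ends, and H3K4me2 was 3.55 against 3.39. Further in the order turned, and at 400 to 500 bp the facing ends had 0.463 (0.451 to 0.475) against 0.496 (0.487 to 0.506) at free ends.

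**Figure D5:**
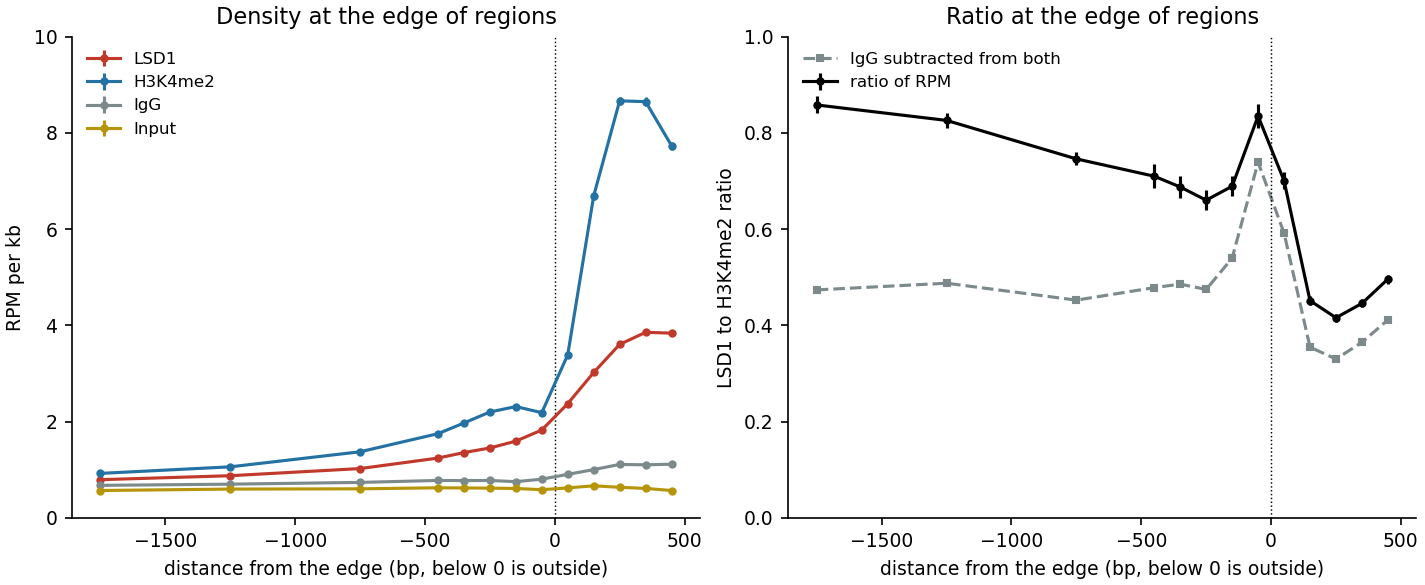
Densities of the 4 libraries in RPM per kb and the LSD1 to H3K4me2 ratio by distance from the 7006 free ends of regions of 1000 bp or more without an LSD1 peak, negative outside and positive inside, with bars for 95% counting intervals; the dashed line is the ratio with IgG taken off both. The H3K4me2 level steps up at the edge, from 2.19 to 8.67 within 300 bp, while LSD1 climbs gradually from 1.83 to 3.61. The edges were placed by H3K4me2 calls on these reads, which favours a step in H3K4me2. Starts were moved 100 bp throughout.

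The place of the reads depended on how far their starts were moved. Inside the regions, pairs of starts on opposite strands were most frequent at 100 bp in LSD1 and at 110 bp in H3K4me2, while IgG and Input had the most pairs at 40 bp, the shortest distance counted. With each library moved by 50% of its own distance, a setting chosen after seeing the data, the centre over edge quotient of regions without an LSD1 peak was 0.632 (0.624 to 0.641). With a move of 50 bp it was 0.646, and with no move 0.822 (0.812 to 0.832), so it lay below 1 under each of these settings. At 500 to under 1000 bp the range was from 0.50 to 0.787 and at 2000 to under 5000 bp from 0.919 to 0.960, where the interval without a move, 0.917 to 1.005, held 1.

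Inside wide regions of both lists, LSD1 peaks were local rises. Narrower regions were left out here, so that the region is wider than its peak largely follows from this choice. In the 2244 regions of both lists that were 1000 bp or more wide and held 1 LSD1 peak, the peak had a median width of 525 bp and the region of 1384 bp. Inside the LSD1 peak the libraries stood at 7.36 LSD1, 9.42 H3K4me2, 1.39 IgG and 0.488 Input RPM per kb, a ratio of 0.782 (0.773 to 0.790). In the rest of the same regions they stood at 3.44, 7.27, 1.09 and 0.524, a ratio of 0.474 (0.468 to 0.479). That rest differed little from the 0.480 of regions without any LSD1 peak. The LSD1 level inside its peaks is raised by the calls on these reads. The H3K4me2 level was higher there too, but position inside the region was not held equal. In regions of 1000 to under 2000 bp with an LSD1 peak, H3K4me2 was 4.47 RPM per kb at the edge and 9.03 at the centre. How much of the H3K4me2 difference follows from position was not tested.

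Around the middle of these LSD1 peaks H3K4me2 fell from 10.0 RPM per kb in the first 100 bp on either side to 6.57 at 400 to 500 bp, and LSD1 from 8.50 to 3.50. The ratio went from 0.847 (0.833 to 0.862) through 0.718, 0.603 and 0.549 to 0.532 (0.519 to 0.546). These windows were not cut at the ends of the regions, so the outer ones lie partly outside where a peak sits near an end. Distance from the LSD1 peak and distance from the region's end are thus mixed in these values. IgG fell slightly, from 1.33 to 1.12, and Input rose from 0.358 to 0.475. Where the region was much wider than the peak, in 379 regions of 2000 bp or more, the LSD1 peak had its midpoint in the inner 50% of the region in 73.1% of cases. A region holds the whole LSD1 peak by construction, which keeps midpoints away from its ends. The share that this alone would give was not worked out, so no central placement is read from it.

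The flanks of the leaning regions were compared as well. From 200 to 1200 bp beyond free ends the ratio was 0.796 (0.768 to 0.826) next to regions leaning to LSD1, 0.751 (0.747 to 0.755) next to regions leaning to neither and 0.669 (0.643 to 0.695) next to regions leaning to H3K4me2. These flanks hold other reads than those that decided the lean, but peak class differs between the groups. On the LSD1 side the order was not seen within each class. In the H3K4me2 list alone leaning regions and the others both had 0.747. The leaning ones gave only 42 ends there (0.638 to 0.8745), so a difference could be missed. In both lists the ratio was 0.804 (0.760 to 0.850) against 0.775. In the LSD1 list alone it was 0.796 (0.756 to 0.838) against 0.858 (0.735 to 1.00). On the H3K4me2 side, where all leaning regions came from the H3K4me2 list alone, it was 0.669 against 0.747. Over all classes LSD1 was, in the order LSD1, neither and H3K4me2, at 1.07, 1.09 and 1.08 RPM per kb, and H3K4me2 was 1.35, 1.45 and 1.61. IgG was 0.742, 0.714 and 0.704 and Input 0.517, 0.567 and 0.585 in the same order, so IgG moved with the lean and Input against it, and their part in the result was not tested.

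Single regions show both ends of the scale. Among the 14942 regions with at least 50 LSD1 plus H3K4me2 reads, the 10 with the highest lower bound of the ratio came from both lists (6) or the LSD1 list alone (4), and their widths ran from 345 to 2715 bp. The first, chr4:139814723-139815386 in mm9, held 54 LSD1 reads and 5 H3K4me2 reads beside 6 IgG and 3 Input reads, a ratio of 11.9 (4.79 to 38.1). Its H3K4me2 level was 0.618 of IgG (0.149 to 2.43), so the mark was not detectable above the control there at this depth. The region chr7:6362806-6363248 held 46 LSD1, 7 H3K4me2, 3 IgG and 2 Input reads, a ratio of 7.23 (3.24 to 18.97). They lay 9341 and 10759 bp from the next region, and the remaining 8 had ratios of 2.70 or less.

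The region chr2:27615720-27618434 combined many LSD1 reads with many control reads. It held 125 LSD1, 51 H3K4me2 and 43 IgG reads but only 3 Input reads, so that LSD1 exceeded IgG 2.37-fold (1.66 to 3.43) and H3K4me2 was at 0.879 of IgG (0.574 to 1.35). On chromosome 16, chr16:38250902-38251698 held 71 LSD1, 44 H3K4me2, 17 IgG and 3 Input reads. In the same neighbourhood chr16:38265896-38266240 held 52, 32, 5 and 1, with LSD1 8.48-fold (3.41 to 27.2) over IgG. A pair on chromosome 8, chr8:19982012-19983355 and chr8:20019710-20020637, held 92 and 55 LSD1, 65 and 36 H3K4me2, 30 and 16 IgG, and 24 and 4 Input reads. Of these 5 regions, 4 held 16 IgG reads or more, against a median of 4 over all regions, without scaling to width. The rest of the 10 regions with the highest lower bound held 1 to 6 IgG reads.

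The 10 regions at the other end, with the lowest upper bound, all came from the H3K4me2 list alone, were 930 to 2083 bp wide and lay 171 to 7094 bp from a neighbour. They held 8 to 21 LSD1, 54 to 99 H3K4me2, 2 to 12 IgG and 1 to 5 Input reads. The first, chr16:84769758-84770811, held 8 LSD1, 57 H3K4me2, 2 IgG and 5 Input reads, a ratio of 0.154 (0.0636 to 0.325). There H3K4me2 exceeded IgG 21.1-fold (5.59 to 179) and LSD1 3.26-fold (0.651 to 31.5), the latter not separable from IgG. In chr9:40602474-40603988 15 LSD1 reads stood against 85 H3K4me2 reads, 3 IgG reads and 3 Input reads, a ratio of 0.194 (0.104 to 0.339). The remaining 8 had ratios of up to 0.233.

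A typical region of middle width was chr16:84735666-84736463, with 20 LSD1, 44 H3K4me2, 4 IgG and 1 Input reads and a ratio of 0.50 (0.279 to 0.866). Its nearest neighbour, 33294 bp away, was the region with the lowest upper bound described above. The width of its interval shows how little so few reads can tell about the lean of 1 region.

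The regions with the most reads were of another kind. The widest and richest, chr11:3041358-3048968, held 933 LSD1, 1154 H3K4me2, 661 IgG and 451 Input reads, and chr15:74915870-74917567 held 331, 404, 259 and 170. Their ratios, 0.889 (0.815 to 0.970) and 0.901 (0.777 to 1.05), stood beside high counts in all 4 libraries: LSD1 exceeded IgG 1.15-fold (1.04 to 1.27) and 1.04-fold (0.883 to 1.23). They were the only regions with 100 or more Input reads. Wide regions with ordinary controls had ordinary ratios. chr18:65739358-65746450 stood at 0.487 (0.404 to 0.586), chr14:71022267-71029327 at 0.573 (0.478 to 0.685), chr5:123582575-123588359 at 0.548 (0.456 to 0.658) and chr15:102071067-102076792 at 0.526 (0.436 to 0.632).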

How the data were processed

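ChIP-seq of 4 libraries (LSD1, H3K4me2, IgG and Input, 1 each) was used. The authors deposited aligned reads, which enter here as counts with 1 line per read, and 3 peak lists with positions only (LSD1, H3K4me2 and IgG). The genome build was mm9, per the submitters' processing notes, while aligner, peak caller, threshold and control were not given in the sources used here. Within a library every line had its own start and strand. Per the labels' protocols, library fragments of about 200 bp were selected and read for 36 bases.

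Reads were assigned to regions by their start, moved 100 bp in reading direction, and counts were divided by library size (reads per 1000000). Library totals, from 3801082 to 6416657, limit the precision of single regions. Ratios carry exact binomial (Clopper-Pearson) 95% intervals given both counts, quotients of ratios Woolf intervals, and densities exact Poisson intervals; all cover counting error only. Calls used at least 20 reads and 2-fold. No test between groups was possible with 1 library each. Named regions were, among those with 50 or more reads, the 10 with the highest lower bound and the 10 with the lowest upper bound, plus the 5 widest, the 5 with the most reads, and those closest to the median of each width class; of the last, 1 is described here beside a region already named among the widest. The calling was tested on simulated data. The tools were numpy 2.4.6, scipy 1.17.1, pandas 2.3.3 and matplotlib 3.10.9 under Python 3.11.15.

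The comparison, its classes and its rules were chosen with earlier results of these data known. The strand ranking, free and facing ends, flanks, neighbours, LSD1 peak interiors, density classes and distances between strands were added after seeing the data. Coordinates are mm9 and start at 1. Since the gene and sequence tables of the reference belong to a later assembly, regions carry no gene, exon, intron or promoter, and no sequence is printed.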

Additional observations from a re-analysis of the deposited data

How the results depend on the processing

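Over 7 results, 78 alternative values were computed: 46 stayed within the interval of the reported value (a count within 1.5 times), 31 moved beyond it and 1 turned direction. The move by each library's own strand distance and the removal of regions with 100 or more Input reads were chosen after seeing the data. The pooled ratio was 0.515 with starts not moved, 0.522 with a move of 50 bp, 0.523 with each library's own distance, 0.464 scaled to reads outside regions, 0.435 with IgG and 0.482 with Input taken off, 0.533 with regions within 1 kb joined, 0.522 with regions touching IgG peaks kept and 0.513 in the upper 50% of each list. Regions leaning to LSD1 numbered 321 of 22837 tested when joined, 1096 of 31157 at 1.5-fold and 512 of 16544 in the upper 50%; those leaning to H3K4me2 numbered 361 when joined and 315 in the upper 50%, of the same totals. Of these, the 512 are a larger share than the 582 of 31157 reported. Narrow over wide regions gave 1.003 with IgG and 1.066 with Input taken off, 0.995 when joined (turned), 1.003 with IgG-touching regions kept and 1.199 in the upper 50%. Isolated over clustered gave 1.046 with IgG-touching regions kept and 1.039 in the upper 50%. Centre over edge gave 0.878 with no move, 0.717 at 50 bp, 0.706 with own distances, 0.790 with IgG and 0.787 with Input taken off, and 0.988 when joined. Regions with over without an LSD1 peak gave 1.537 with IgG and 1.46 with Input taken off, 1.262 when joined, 1.391 with IgG-touching regions kept, 1.426 in the upper 50% and 1.423 where LSD1 peaks cover at least 25% of the region. Joining leaves fewer regions and places many former edges inside a region; the cause of the other shifts was not tested. Scaling to reads outside regions cannot move calls or quotients by construction. Isolated over clustered could not be computed when joined, since no gap under 1 kb remains. No paired analysis was possible because there was 1 library per group.

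Depth limits single regions: with a median of 15 LSD1 and 32 H3K4me2 reads, the interval of a typical region spans several-fold. IgG and Input were shallower still, with 1822 and 9461 regions at 0 reads, so no single-region ratio was corrected for them.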

Other observations

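The LSD1 to H3K4me2 ratio after IgG was taken off both libraries spread more widely between peak classes than the plain ratio. It was 0.389 in regions of the H3K4me2 list alone, 0.580 in regions of both lists and 2.24 in regions of the LSD1 list alone, against 0.480, 0.643 and 1.84 without that step. In the 568 regions leaning to H3K4me2 it was 0.0766, against 0.194. These regions were chosen by a low ratio on the same reads, so the low value follows at least in part from that choice. IgG itself was higher in regions with LSD1 calls, at 1.24 RPM per kb in the LSD1 list alone, 1.19 in both lists and 1.03 in the H3K4me2 list alone. Input was 0.295, 0.457 and 0.524 RPM per kb in the same order, but it moves with width: at 500 to under 1000 bp it was 0.599, 0.351 and 0.504, and IgG there was 1.12, 1.15 and 1.02.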
